A study of Mus musculus with 17 samples.

Results

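The laminin chains of the mouse left ventricle were followed across pressure overload and treatment with 29P. The 8 genes were taken by symbol (Lama2, Lama3, Lama4, Lama5, Lamb1, Lamb2, Lamb3 and Lamc1) out of 21798 genes in the expression file, and all 8 were among the 16218 genes that reached 0.5 CPM (read counts scaled to the same library total) in at least 3 libraries. Bulk RNA of the left ventricular apex was sequenced from 17 male C57Bl6/J mice, operated at 7 to 8 weeks of age and killed 3 weeks later. Transverse aortic constriction (TAC), which narrows the aorta with a suture and loads the left ventricle, was compared with Sham surgery. Beginning 1 week after surgery, mice of every group had 6 oral gavages of either saline, the vehicle (Veh), or 50 µg/kg of 29P, the prodrug of the RGD mimetic 29 that binds αvβ3 integrin. There were 5 libraries of Sham Veh mice, 3 of Sham 29P, 3 of TAC Veh and 6 of TAC 29P, which are named here by the S numbers of their labels. The study had left out libraries before deposit, among them a TAC Veh library that clustered with the Sham libraries, so the separation of TAC Veh from Sham below depends in part on that choice, and the size of its effect was not tested. No transgene or Cre was used, and the model is limited to male mice of 1 strain, 1 time after surgery and 1 piece of tissue per heart.

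Laminins are the heterotrimeric glycoproteins that build the basement membrane around cardiomyocytes, endothelial cells, pericytes and nerves. Each trimer joins an α, a β and a γ chain along a coiled coil. The α chain ends in globular domains that bind dystroglycan and integrins, and the γ1 chain binds nidogen, which links the laminin sheet to collagen IV. Lama2 encodes the α2 chain of striated muscle, whose loss causes congenital muscular dystrophy. Lama4 and Lama5 encode the α4 and α5 chains of vessel walls, and Lama3 and Lamb3 encode the α3 and β3 chains of epithelial laminins.

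Coding stretches at which these chains meet their partners were read from GENCODE vM21 (build GRCm38, the same as mm10), 5′ to 3′ on the coding strand. The Lamc1 stretches are shown because Lamc1 was called higher after TAC in every setting that was run, and the Lama4 and Lama5 stretches because the compound given to the mice mimics the tripeptide Arg-Gly-Asp (RGD).
Lamc1 nidogen-binding motif, 7 codons in capitals (chr1:153243346-153243396, minus strand, exon 14 of 28): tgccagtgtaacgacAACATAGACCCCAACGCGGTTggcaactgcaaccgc
Lamc1 last 15 codons, the codon of glutamate, first of the last 3, in capitals (chr1:153221476-153221520, minus strand, exon 28 of 28): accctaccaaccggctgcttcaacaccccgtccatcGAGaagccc
Lama5 codons 1717 onwards, RGD codons in capitals (chr2:180190354-180190398, minus strand, exon 39 of 79): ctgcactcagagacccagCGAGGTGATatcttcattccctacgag
Lama5 codons 1833 onwards, RGD codons in capitals (spliced across chr2:180188672-180189368, minus strand): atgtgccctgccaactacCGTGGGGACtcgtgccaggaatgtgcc
Lama4 codons 711 onwards, RGD codons in capitals (spliced across chr10:39065699-39067877, plus strand): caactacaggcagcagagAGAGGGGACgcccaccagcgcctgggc
Of the 8 chains, 3 encoded RGD, with 2 copies in Lama5 and 1 each in Lama4 and Lama3, against 8.83% of 13392 tested genes with a complete coding sequence. That share was not matched for coding length, and the 8 chains held 1168 to 3718 codons, so it cannot show whether RGD is more frequent in them. The presence of these codons says nothing of whether the site is exposed in the protein. The 7-codon nidogen motif was found in Lamc1 and in no other of these 13392 genes, and among the 8 chains only Lamc1 had glutamate as the first of its last 3 residues, the residue that integrins need to bind γ1 laminins.

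Estimated depth was 14.2 to 23.8 M reads per library (median 20.4 M). Libraries S6 and S19 of Sham Veh and S14 of Sham 29P were low in GC-rich genes: the median log2 deviation of the 10% most GC-rich genes minus that of the 10% most GC-poor was −0.67, −0.55 and −1.20, against −0.25 to 0.41 in the other libraries. Libraries S19 and S20 of Sham Veh and S18 of TAC 29P held atrial transcripts, with a summed CPM of Myl7, Myl4, Sln and Bmp10 of 2543, 2032 and 1529. The 5 cardiomyocyte markers were detected in every group (summed CPM of 28945 to 43736 per library), as the tissue label states. Over all genes tested, the median log2 fold change was itself 0.35 for TAC Veh against Sham Veh and 0.37 for TAC 29P against Sham 29P. It was 0.01 in both with TMM factors, which rescale each library by a trimmed mean of its gene ratios, so the TAC changes of the chains are also given with TMM factors and, for most, after a correction for GC content. Mitochondrial genes took 29.1 to 38.8% of the CPM in Sham Veh, 32.9 to 40.0% in Sham 29P, 23.6 to 27.9% in TAC Veh and 25.1 to 29.4% in TAC 29P libraries. With totals without these genes the all-gene medians were 0.19 and 0.20, and those of the 8 chains 0.56 and 0.47. Lama2, Lama4, Lamb1 and Lamc1 were then called higher by limma in both comparisons, beside 1588 and 2028 of 16218 genes. The part of the mitochondrial share in the chain changes was not tested.

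Divided by exon length, the levels of the chains ran from those of Lamb2 and Lamc1 down to that of Lama3. Lamb2, which encodes the β2 chain, had the highest median, 31.6 CPM per kb of exon (16.5 to 42.1 over 17 libraries). Lamc1 followed with 28.7 (14.9 to 39.2) and Lamb1 with 13.9 CPM per kb (6.25 to 16.9). Lamb2 exceeded Lamc1 in 14 of 17 libraries, in all 8 Sham and in 6 of 9 TAC libraries; after TAC these neighbours overlapped. The α chains were lower, Lama4 at 8.45 (5.24 to 11.98), Lama2 at 7.46 (4.06 to 9.74) and Lama5 at 4.41 CPM per kb (2.20 to 5.54). Lama4 lay above Lama2 in 16 of 17 libraries, by a ratio of medians of 1.13. The epithelial-type chains stood last, Lamb3 at 1.02 (0.487 to 2.40) and Lama3 at 0.284 CPM per kb (0.104 to 0.464). Every other neighbouring pair kept its order in all 17 libraries.

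Shares were taken within the α and the β class. Of the α chains, Lama4 made up 42.0% ± 3.0 (SD, n = 5 Sham Veh) and 43.0% ± 3.3 (SD, n = 3 TAC Veh), and Lama2 34.3% ± 2.4 and 35.9% ± 1.9. Lama5 made up 22.4% ± 3.9 in Sham Veh and 19.6% ± 1.6 in TAC Veh hearts, and Lama3 0.802 to 2.12% in any library. Lamb2 held 63.2 to 74.7% of the β chains and Lamb1 21.9 to 33.4%. Lamb3 took 1.91 to 6.78% of them in Sham Veh and 1.26 to 1.78% in TAC Veh libraries. It took 3.41 to 3.91% in Sham 29P against 1.62 to 2.23% in TAC 29P libraries, so the TAC libraries of either treatment lay below their Sham libraries. A share also falls where other chains of its class rise, and the CPM of Lamb3 itself overlapped between TAC and Sham in either treatment. The highest Lamb3 shares were those of S19 and S20, Sham Veh libraries with atrial transcripts. These shares depend on the length used: with the longest transcript of each gene in place of all its exons, Lamb1 held 30.5 to 44.2% of the β chains and Lama5 9.56 to 18.7% of the α chains.

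**Figure D1:**
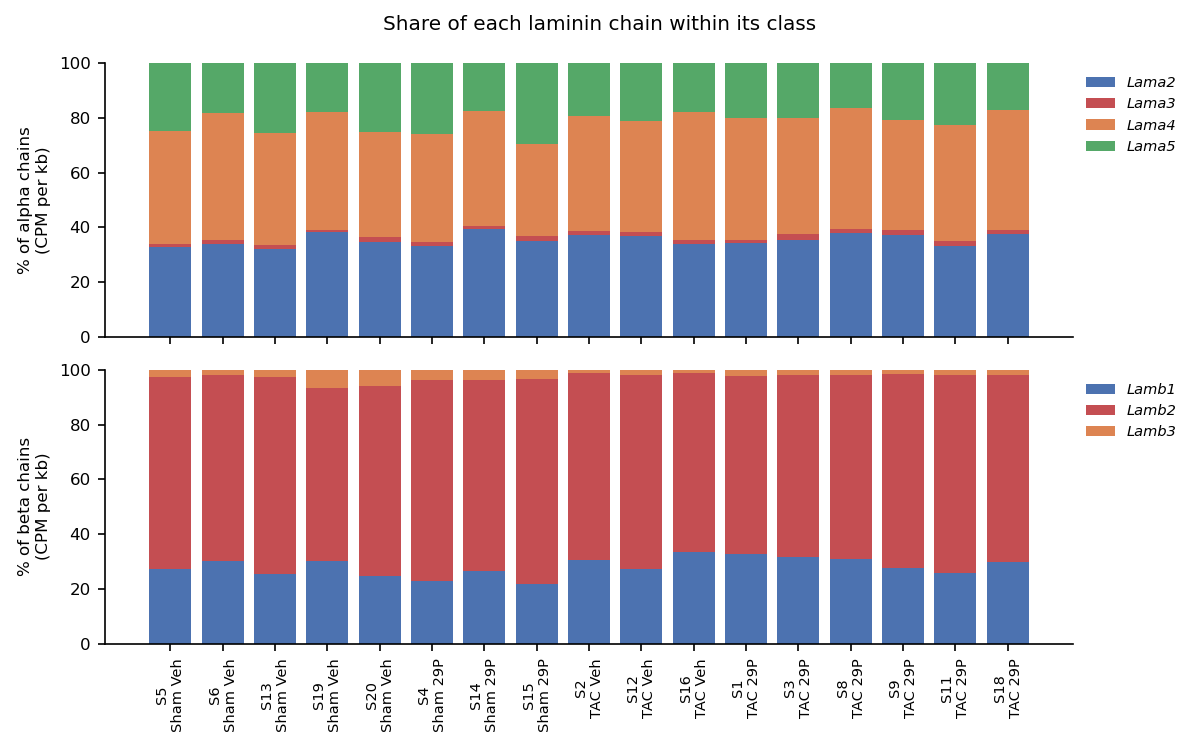
Share of each laminin chain within its class, in percent of the summed CPM per kb of exon of the α (top) and β chains (bottom), with a bar for each of the 17 libraries. Lamb2 fills 63.2 to 74.7% of the β class, while the Lamb3 share reaches 6.78% in Sham Veh and at most 1.78% in TAC Veh.

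The first comparison asked how pressure overload changed the chains in vehicle-treated mice. In TAC Veh hearts 5 of the 8 chains rose against Sham Veh (Lama2, Lama3, Lama4, Lamb1 and Lamc1; limma, Benjamini-Hochberg adjusted p of 0.05 or less) and none fell; of all 16218 genes tested, 22.5% were called higher and 1.91% lower, 24.4% in all. At an unadjusted p of 0.05 or less, 6 chains passed, against 40.9% of all genes. The median log2 fold change of the 8 chains was 0.71, against 0.35 for all genes. In 6 of the 8 chains the TAC Veh and Sham Veh libraries did not overlap, as was the case in 29.8% of all genes. With TMM factors 4 chains were called higher and Lamb3 lower (background 4.03% higher, 5.51% lower and 9.54% in all), and likewise after GC correction (6.96%, 6.54% and 13.5%) and without S6, S14 and S19 (12.5%, 1.98% and 14.5%). The second comparison asked the same in mice given 29P: in TAC 29P hearts 4 chains rose against Sham 29P (Lama2, Lama4, Lamb1 and Lamc1), where 31.4% of all genes were called higher, 1.12% lower and 32.5% in all. The groups did not overlap for these same 4 chains, and 26.1% of all genes had no overlap. At an unadjusted p of 0.05 or less 5 chains passed, against 45.5% of all genes, and the median of the chains was 0.65. With TMM factors 3 chains were called higher (5.64% of all genes higher, 5.2% lower, 10.8% in all), after GC correction 4 higher and Lama5 lower (6.28%, 5.04% and 11.3%), and without S6, S14 and S19 4 higher (12.8%, 0.481% and 13.3%). Bulk RNA cannot tell more cells of a type from more RNA per cell.

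Lamc1, the γ chain of most laminins in the heart, had 123 to 192 CPM in the 8 Sham libraries and 238 to 324 CPM in the 9 TAC libraries, so that the lowest TAC library stood above every Sham library. In TAC Veh hearts Lamc1 measured 324, 270 and 315 CPM, and in TAC 29P hearts from 238 to 277 with a median of 264. Lamc1 rose by 0.91 on the log2 scale in Veh mice (SE 0.150, limma adjusted p = 0.00158), with an exact two-sided permutation p of 0.0357, which 3 against 5 libraries cannot undercut. With 29P it rose by 0.79 (SE 0.145, limma adjusted p = 0.00280), and the exact permutation p was 0.0238, the lower limit for 6 against 3 libraries. The other chains without overlap had these same permutation p-values. Lamc1 was called in both comparisons under every alternative that was run, with each library left out in turn as well, at 0.58 and 0.42 with TMM factors and 0.56 and 0.33 after GC correction.

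Lama2 was read at 100.6, 66.3, 94.0, 80.8 and 94.1 CPM in the Sham Veh libraries and at 159, 133 and 141 CPM in the TAC Veh libraries. Its TAC 29P libraries ran from 122 to 140 (median 129), all above the 3 Sham 29P libraries at 93.1, 80.3 and 92.3 CPM. TAC raised Lama2 in both pairs of groups, by 0.74 on the log2 scale in Veh mice (SE 0.120, limma adjusted p = 0.00151) and 0.57 with 29P (SE 0.116, limma adjusted p = 0.00416). With TMM factors the Lama2 change was 0.41 after vehicle (limma adjusted p = 0.00780) and 0.20 with 29P, where the call was lost (limma adjusted p = 0.134), as with median-of-ratios factors (limma adjusted p = 0.123). With the run of animal numbers in the fit, Lama2 also lost its call with 29P (0.54, limma adjusted p = 0.0511), as it did without S6, S14 and S19 with TMM factors (0.22, limma adjusted p = 0.175) or GC correction (0.27, limma adjusted p = 0.0627).

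Lama4, the α4 chain of capillary basement membranes, measured 93.7, 67.3, 88.0, 67.6 and 77.2 CPM in Sham Veh and 132, 108 and 145 CPM in TAC Veh libraries. In Sham 29P it measured 82.1, 63.3 and 66.1 CPM, and in TAC 29P 102 to 125 with a median of 119. The groups were separate in both comparisons, and the log2 fold changes were 0.70 (SE 0.130, limma adjusted p = 0.00291) and 0.73 (SE 0.126, limma adjusted p = 0.00221). Lama4 rose with TMM factors as well, by 0.37 and 0.36 (limma adjusted p = 0.0360 and 0.0347). The calls of Lama4 were lost in both comparisons when S6, S14 and S19 were left out together with TMM factors or GC correction (0.33 to 0.42, limma adjusted p = 0.0625 to 0.117).

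Lamb1 encodes the β1 chain, the common partner of α2, α4 and α5 in interstitial and vascular basement membranes. Its CPM was 121, 76.0, 105, 83.1 and 99.4 in Sham Veh, 98.1, 62.0 and 89.1 in Sham 29P, 168, 138 and 167 in TAC Veh, and 140 to 156 (median 148) in TAC 29P. Every TAC library stood above the highest Sham library. Lamb1 rose by 0.72 in Veh mice (SE 0.151, limma adjusted p = 0.00565) and by 0.86 with 29P (SE 0.146, limma adjusted p = 0.00204), and by 0.39 and 0.49 with TMM factors (limma adjusted p = 0.0310 and 0.00906). Without TAC Veh library S2, Lamb1 lost its call in Veh mice, at 0.67 (limma adjusted p = 0.0506), and the same combined settings that ended the Lama4 calls ended those of Lamb1.

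Lama2, Lama4, Lamb1 and Lamc1 thus had all 9 TAC libraries above all 8 Sham libraries, as 9.52% of all genes tested did. The left-out TAC Veh library is not among these.

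Lama3 was scarce, and its change was less sure. It measured 2.69, 1.83, 2.66, 1.12 and 2.95 CPM in Sham Veh and 4.64, 3.13 and 4.32 CPM in TAC Veh hearts, which came to 0.90 on the log2 scale (SE 0.307, limma adjusted p = 0.0416). In TAC 29P hearts it ranged from 2.64 to 4.98 CPM (median 3.94) against 2.35, 1.69 and 3.05 in Sham 29P, a difference of 0.75 that did not pass (SE 0.297, limma adjusted p = 0.0601). The Veh call was absent with TMM factors (0.57, limma adjusted p = 0.180), after GC correction (0.53, limma adjusted p = 0.147), with the run in the fit (0.73, limma adjusted p = 0.148) and when S2, S6, S16 or S19 was left out (0.67 to 0.85, limma adjusted p = 0.0810 to 0.176), 4 of the 8 libraries compared. It was also lost without TAC 29P S8 or S9, which share the fit (limma adjusted p = 0.0505 and 0.0525), without a filter (0.0613), with only the groups compared (0.0787) and with totals free of mitochondrial genes (0.0856). With 29P, Lama3 was in turn called higher with a constant of 1, with only the groups compared, without S18, S19 and S20 together, and without TAC 29P S1 or Sham Veh S19.

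**Figure D2:**
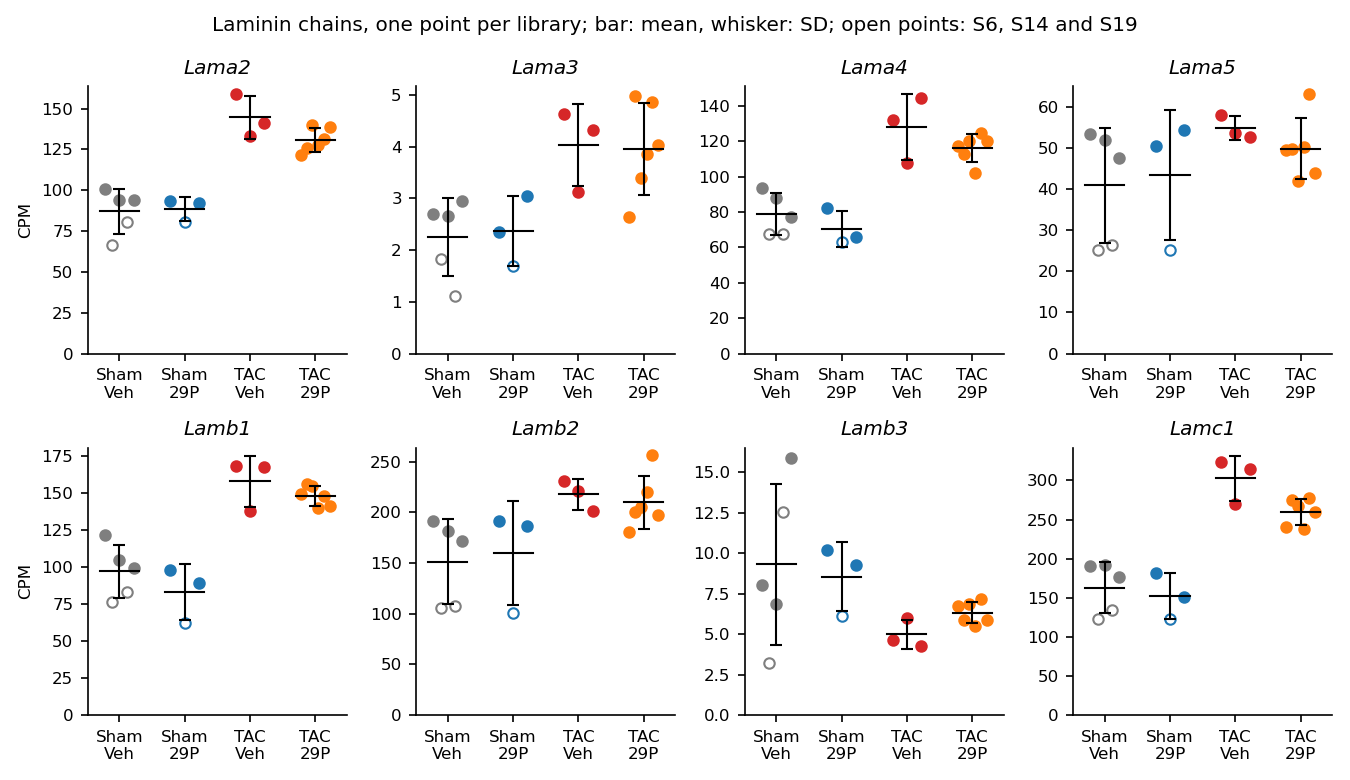
CPM of each laminin chain in every library (vertical axis, linear from 0), by group (horizontal axis), with the mean as a bar and the SD as a whisker. For Lama2, Lama4, Lamb1 and Lamc1 all TAC points stand above all Sham points, whereas the open points (S6, S14 and S19) are the lowest of Lama5 and Lamb2.

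Lama5 and Lamb2, the chains of mature vascular and synaptic basement membranes, were lowest in the 3 libraries low in GC-rich genes. Their transcripts were the richest in GC of the 8 chains, with 59.9% (above 96.0% of tested genes) for Lama5 and 58.8% (above 93.7%) for Lamb2, against 47.7% for Lama2. Lama5 measured 25.1, 26.4 and 25.2 CPM in S6, S19 and S14, and 41.8 to 63.1 CPM in the other 14 libraries. Lamb2 measured 105, 107 and 100.5 CPM in these libraries, and 172 to 256 CPM in the others. Against the other 5 Sham libraries, the mean log2 CPM of S6, S14 and S19 was 1.01 lower for Lama5 and 0.82 lower for Lamb2, 0.85 lower for Lama3, 0.62 for Lamb3, 0.49 for Lamc1, 0.48 for Lamb1, 0.33 for Lama2 and 0.29 for Lama4. The order of these differences was thus not that of GC content throughout, and these 3 libraries are all Sham.

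In TAC Veh hearts Lama5 measured 58.1, 53.6 and 52.6 CPM, and Lamb2 231, 221 and 201 CPM. Neither passed the test against Sham Veh, at a log2 fold change of 0.50 for Lama5 (SE 0.266, limma adjusted p = 0.165) and 0.57 for Lamb2 (SE 0.220, limma adjusted p = 0.0644), although for Lamb2 no TAC Veh library was as low as any Sham Veh library. Lamb2 was called without Sham Veh S5 or S13 (0.67 and 0.65, limma adjusted p = 0.0359 and 0.0472), and without Sham 29P S14, which shares the fit. With 29P the differences were 0.26 for Lama5 (limma adjusted p = 0.437) and 0.45 for Lamb2 (limma adjusted p = 0.112). Without S6, S14 and S19, Lama5 differed by 0.10 and Lamb2 by 0.26 in Veh mice (limma adjusted p = 0.592 and 0.116). After GC correction the values were −0.014 for Lama5 and 0.07 for Lamb2, and with 29P −0.39 for Lama5 (limma adjusted p = 0.0473), a call in the lower direction that no setting without the correction gave, and −0.18 for Lamb2 (limma adjusted p = 0.211). The direction of Lama5 under TAC therefore changed with the scaling.

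**Figure D3:**
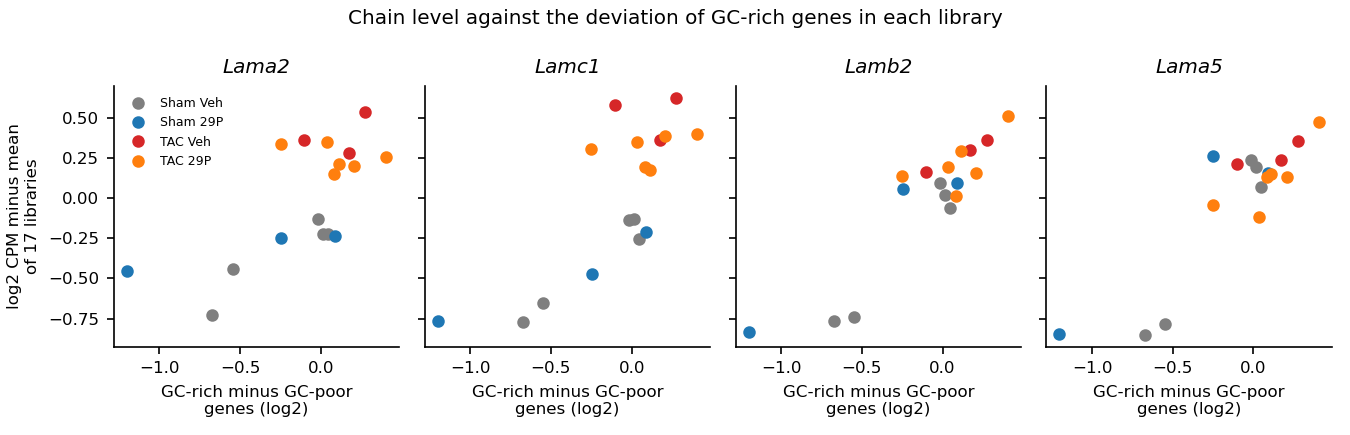
Log2 CPM of Lama2, Lamc1, Lamb2 and Lama5 minus the mean of the 17 libraries (vertical axis) against the median log2 deviation of GC-rich minus GC-poor genes in the library (horizontal axis), 1 point per library coloured by group. For Lama2 and Lamc1 all TAC points lie above all Sham points, whereas for Lamb2 and Lama5 the 3 libraries at −0.55 to −1.20 lie below the 14 others.

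The bases before the RefSeq start of Lamb1, which rose, and of Lama5, which did not pass, are shown because both chains pair in the same trimer (build GRCm38.p6, coding strand, up to the first base of the GENCODE gene). Capitals mark GGGCGG or its reverse complement CCGCCC, the GC box bound by Sp1.
Lamb1 (chr12:31265043-31265233, plus strand): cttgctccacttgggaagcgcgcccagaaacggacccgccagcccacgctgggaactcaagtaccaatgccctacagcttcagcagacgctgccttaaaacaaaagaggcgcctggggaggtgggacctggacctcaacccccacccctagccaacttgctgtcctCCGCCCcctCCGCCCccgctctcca
Lama5 (chr2:180225860-180226109, minus strand): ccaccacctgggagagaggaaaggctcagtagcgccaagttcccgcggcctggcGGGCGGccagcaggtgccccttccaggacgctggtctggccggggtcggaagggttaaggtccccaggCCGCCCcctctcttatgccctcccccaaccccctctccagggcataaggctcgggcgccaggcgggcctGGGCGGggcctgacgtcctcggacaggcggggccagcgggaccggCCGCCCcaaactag
Lamb1 held 2 and Lama5 4 such boxes, in windows of 63.9 and 72.4% GC. At least 1 box stood in 23.1% of 32851 RefSeq promoter windows of the Lamb1 length and in 32.7% of the Lama5 length.

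Lamb3, the β3 chain of epithelial laminins, had lower means after TAC than after Sham surgery. It measured 8.03, 3.22, 6.84, 12.5 and 15.9 CPM in Sham Veh, 10.2, 6.13 and 9.27 in Sham 29P, 4.64, 6.02 and 4.26 in TAC Veh, and 5.49 to 7.17 (median 6.31) in TAC 29P. Lamb3 differed by −0.72 on the log2 scale in Veh mice (SE 0.352, limma adjusted p = 0.131, exact permutation p = 0.250) and −0.40 with 29P (SE 0.341, limma adjusted p = 0.364), and neither passed. With TMM factors, with GC correction or without S6, S14 and S19, Lamb3 was called lower in TAC Veh hearts, at −1.05, −1.12 and −0.96 (limma adjusted p = 0.0480, 0.0196 and 0.0241), and also without Sham Veh S6 (−1.06, limma adjusted p = 0.0161).

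The highest Lamb3 values were those of S19 and S20, both Sham Veh libraries with atrial transcripts, while S18 of TAC 29P, which held them too, had 5.85 CPM. Without S18, S19 and S20, Lamb3 differed by −0.19 in Veh mice (limma adjusted p = 0.657), and the difference with 29P was −0.38 (limma adjusted p = 0.266). The part of atrial tissue in the Sham Veh level of Lamb3 was not tested. The annotated span of Lamb3 also overlaps 6 other genes, 2 of them on its own strand, and the strand setting of the counting is not given in the sources used here.

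**Figure D4:**
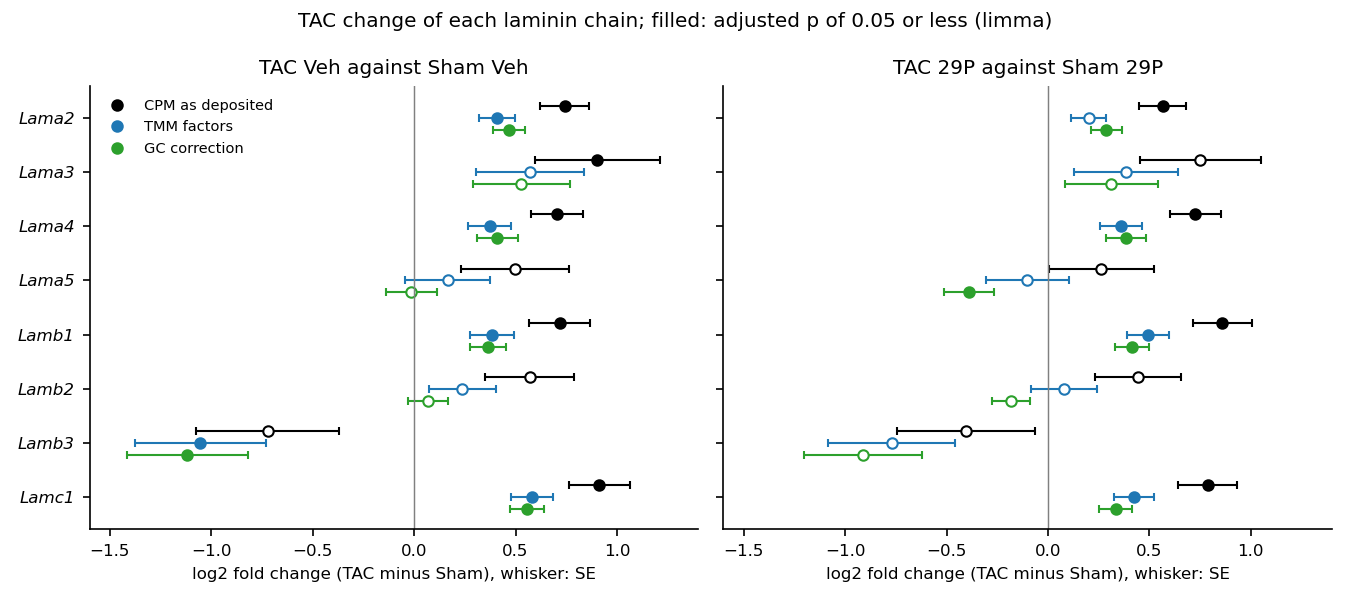
Log2 fold change, TAC minus Sham, of each laminin chain (horizontal axis) in Veh mice (left) and 29P mice (right), with the SE as a whisker, for CPM as deposited, with TMM factors and after GC correction; filled points have a limma adjusted p of 0.05 or less. Lama4, Lamb1 and Lamc1 are filled under all of them on both sides, and Lamb3 lies below 0 throughout.

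Ratios of chains of the same class do not depend on how a library was scaled, and 3 of them were compared in 4 pairs of groups by exact two-sided permutation, 12 tests in all. The log2 ratio of Lama4 to Lama2 was −0.14 ± 0.13 (SD, n = 5 Sham Veh) and −0.18 ± 0.19 (SD, n = 3 TAC Veh), a difference of −0.04 (exact permutation p = 0.714). The log2 ratio of Lamb1 to Lamb2 was −0.91 ± 0.19 (SD, n = 3) in Sham 29P and −0.50 ± 0.19 (SD, n = 6) in TAC 29P hearts. This difference of 0.41 had the smallest raw p of the 12 (exact permutation p = 0.0476), and adjusted over the 12 exact tests p was 0.429, which did not pass. In Veh mice the same ratio differed by 0.15 (exact permutation p = 0.321). After GC correction the Lamb1 to Lamb2 ratio differed by 0.30 in Veh mice and 0.60 with 29P (exact permutation p = 0.0714 and 0.0238, before adjustment), and by −0.33 in Sham 29P against Sham Veh (exact permutation p = 0.0357, before adjustment). The log2 ratio of Lama5 to Lama2 differed by −0.25 in Veh mice and −0.30 with 29P (exact permutation p = 0.286 for both), and after GC correction by −0.48 and −0.68 (exact permutation p = 0.0357 and 0.0238, before adjustment).

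The third comparison asked whether 29P changed the chains in loaded hearts. None of the 8 chains was called in TAC 29P against TAC Veh hearts (limma adjusted p = 1 for all 8), and none had an unadjusted p of 0.05 or less; over all genes 0% passed the adjusted and 1.98% the unadjusted threshold. The lowest unadjusted p was that of Lamc1, with a log2 fold change of −0.22 (95% interval −0.53 to 0.09, unadjusted p = 0.148 by limma), with an exact permutation p of 0.0714, and 4 of the 6 TAC 29P values were under every TAC Veh value. Lama2 differed by −0.14 (95% interval −0.38 to 0.10), also with 4 of 6 values under those of TAC Veh, and Lama5 by −0.15 (−0.69 to 0.39), with 5 of 6. Lamb2 and Lama3 differed by −0.06 and −0.04. Lamb1 differed by −0.09 (−0.39 to 0.22), Lama4 by −0.14 (−0.40 to 0.13) and Lamb3 by 0.36 (−0.36 to 1.07). No chain had groups without overlap, as 1.83% of all genes did. The intervals reached down to −0.53 for Lamc1 and −0.69 for Lama5, so the comparison does not show that 29P left them unaltered. In some other settings chains passed an unadjusted p of 0.05 or less by limma, though none was called. After GC correction, and without S6, S14 and S19 under any scaling, 1 chain was lower, as were 250 to 327 of all genes. With only the groups compared 1 chain was higher and 1 lower, beside 280 and 399 of all genes.

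In the fourth comparison, Sham 29P against Sham Veh, none of the 8 chains was called either (limma adjusted p from 0.735 for Lamb1 to 0.987 for Lamb3), against 0.00617% of all genes, and none had an unadjusted p of 0.05 or less, against 7.49% of all genes. Lamb1 differed the most, by −0.23 (95% interval −0.55 to 0.09, limma adjusted p = 0.735), and Lama4 differed by −0.16 (−0.43 to 0.12). No chain had groups without overlap, against 2.14% of all genes. In some other settings 1 chain had an unadjusted p of 0.05 or less by limma, though none was called. It was higher after GC correction, as were 721 of all genes. Without Sham Veh S6 or without Sham 29P S4, 1 chain was lower, as were 1146 and 2424 of all genes. The difference of the TAC change between 29P and Veh mice was tested as an interaction: it was −0.18 for Lama2, 0.02 for Lama4, 0.14 for Lamb1 and −0.12 for Lamc1 (limma adjusted p = 0.998 for all 8 chains). The 95% interval for Lamc1 ran from −0.56 to 0.31. No chain had an unadjusted interaction p of 0.05 or less by limma. Of all 16218 genes 1 was called in the interaction, and 321 were higher and 140 lower at the unadjusted threshold. After GC correction 1 chain was lower at that threshold, beside 353 genes higher and 376 lower of 15887. The Lama3 change in Veh mice is therefore not shown to differ from that with 29P, as the interaction was −0.15 (−1.05 to 0.75).

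Lamc3, the γ3 chain, ranged from 0.176 to 1.12 CPM and passed in neither comparison. Lama1 was not analysed here.

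Most genes of the proteins to which laminins are tied in the basement membrane rose as well. Of 12 partners (nidogens, perlecan, agrin, the collagen IV chains and collagens XV and XVIII), 11 rose in TAC Veh hearts and 11 in TAC 29P hearts, with a median log2 fold change of 1.20 and 1.14. Of all genes 22.5% and 31.4% were called higher. With TMM factors 10 and 7 of the 12 were called higher, against 4.03% and 5.64% of all genes, and after GC correction 11 and 7, against 6.96% and 6.28%. Nid1, the nidogen that binds the Lamc1 motif shown above, rose by 0.82 (SE 0.105, limma adjusted p = 0.000428). Col4a3, Col4a4 and Col4a5, the collagen IV chains of specialised basement membranes, rose by 2.04, 1.44 and 0.87 (limma adjusted p = 0.000628, 0.000672 and 0.00116). Within TAC, none of the 12 was called with 29P. Col4a4, Nid1 and Col4a3 had an unadjusted p of 0.05 or less by limma, at −0.48, −0.24 and −0.59, where 1.98% of all genes did. The paper had already reported these genes as reduced by 29P from the same libraries.

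Of 7 laminin receptor genes, Itgb1 and Itga6, which encode the β1 and α6 integrin chains, rose in TAC Veh hearts by 0.50 and 0.61 (limma adjusted p = 0.00688 and 0.00800). In TAC 29P hearts 3 rose, Itga6 by 0.67, Itgb4 by 1.33 and Itgb1 by 0.34 (limma adjusted p = 0.00406, 0.0181 and 0.0250). These 2 and 3 of 7 stand beside the 22.5% and 31.4% of all genes called higher. With TMM factors no receptor gene passed in either comparison, and after GC correction Itgb1 in Veh mice did (0.28, limma adjusted p = 0.0400). Dag1, the dystroglycan gene, differed by 0.29 and 0.19, Itga7, the muscle laminin integrin, by 0.38 and 0.46, Itga3 by 0.47 and 0.50 and Bcam, a laminin α5 receptor, by 0.28 and 0.45, and none of them passed. Of the αvβ3 integrin that 29 binds, Itgav rose in Veh mice by 0.57 (limma adjusted p = 0.0261) and Itgb3 with 29P by 1.35 (limma adjusted p = 0.0371). Itgb3 differed by 0.74 in Veh mice and Itgav by 0.39 with 29P, which did not pass, and no interaction was called. Neither gene passed in either comparison with TMM factors, after GC correction or without S6, S14 and S19. Without these libraries the differences with 29P were 0.45 for Itgav and 0.63 for Itgb3.

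Of the 12 genes of the dystrophin complex, which ties dystroglycan to actin, 5 rose in TAC Veh hearts and 4 with 29P. Beside them stand the 22.5% and 31.4% of all genes called higher. The list medians were 0.39 in Veh mice and 0.26 with 29P, against all-gene medians of 0.35 and 0.37. The 5 in Veh mice were Sntb2 by 0.77, Sntb1 by 0.83, Utrn by 0.44, Dtna by 0.36 and Dmd by 0.57. With TMM factors 1 gene was called higher in Veh mice (Sntb2, by 0.43, limma adjusted p = 0.0426) and 1 lower, beside 4.03% and 5.51% of all genes. After GC correction 2 were higher and 2 lower, beside 6.96% and 6.54%. With 29P, 1 was higher with TMM factors, beside 5.64% of all genes. After GC correction 2 were higher and 1 lower with 29P, beside 6.28% and 5.04%. Of 12 genes that glycosylate dystroglycan for laminin binding, Pomk and Pomt2 rose by 0.49 and 0.48 (limma adjusted p = 0.0454 and 0.0458), with a list median of 0.21, and 3 others rose with 29P, again beside 22.5% and 31.4% of all genes. With TMM factors Pomk and Pomt2 differed by 0.16 and 0.15 and did not pass. No gene of this list was called higher in either comparison with TMM factors or after GC correction. With TMM factors 1 was lower with 29P, beside 5.2% of all genes. After GC correction 1 of 11 was lower in Veh mice and 2 with 29P, beside 6.54% and 5.04%. The list medians were −0.13 and −0.08 with TMM factors and −0.11 and −0.16 after GC correction. In Veh mice Pomgnt1 and B3galnt2 differed by 0.51 and 0.31 and did not pass. Of the netrins, which share the laminin N-terminal domain, 4 of 6 were tested, and Ntn4, which binds γ1 laminins, rose by 0.60 in Veh mice and by 0.48 with 29P (limma adjusted p = 0.0190 and 0.0338), without a call under TMM factors. Ntng2 rose with 29P by 1.41 (limma adjusted p = 0.0184), also without a call under TMM factors (1.05, limma adjusted p = 0.0740), and no netrin was called in the interaction. Ntng2, Ntn1 and Ntn3 differed by 1.03, 0.43 and −0.39 in Veh mice and did not pass.

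**Figure D5:**
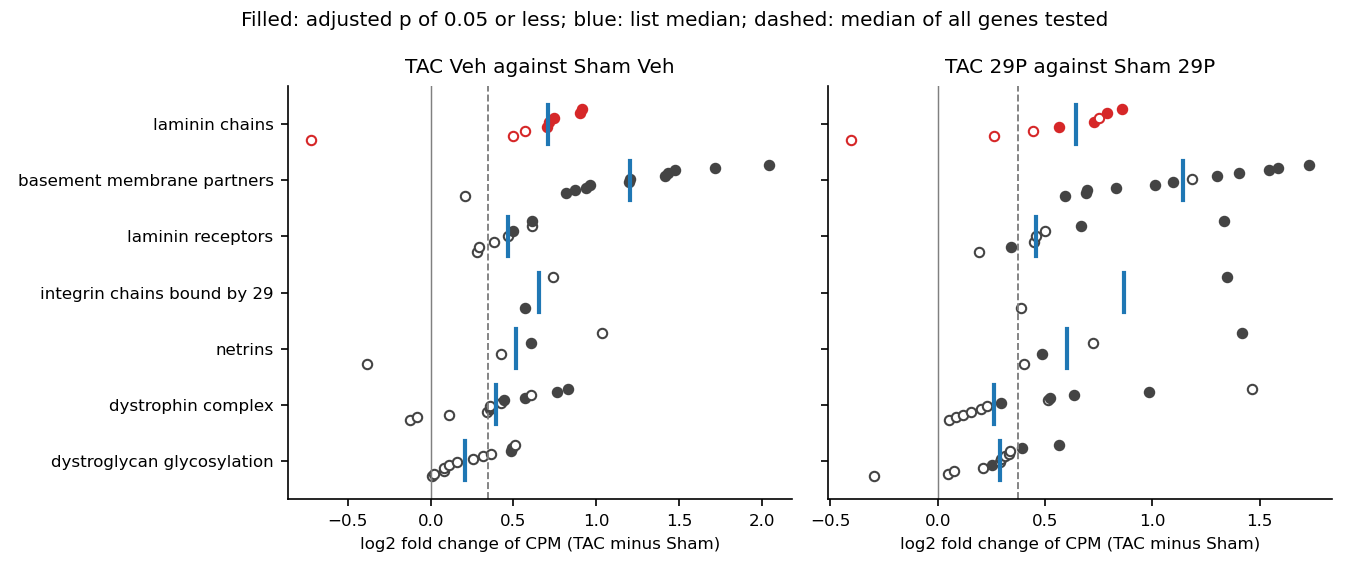
Log2 fold change of CPM, TAC minus Sham (horizontal axis), of the laminin chains (red) and of the genes of 6 related lists (dark grey) in Veh mice (left) and 29P mice (right), 1 point per gene, filled where the limma adjusted p was 0.05 or less. The blue bar is the list median, 0.71 for the chains and 1.20 for the basement membrane partners in Veh mice, and the dashed line the median of all genes tested.

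The genes whose log2 level was most like that of each chain over the 17 libraries were found by Pearson r, given as a description, since the libraries share surgery, depth and GC content. For Lama4 the nearest gene of 16217 was Lamc1 (r = 0.97), followed by Ptprk and Map4k4. For Lamb1 they were Magi1, Nid2 and Tspan9 (r = 0.98 each), and for Lamc1 Magi1, Map4k4 and Myo9b (0.98 each). For Lama2 they were Ptprj, Ehbp1l1 and Hk1 (0.98 each), with Lamc1 in rank 6. Lama5 was nearest to Atg2a, Lamb2 and Leng8 (0.95 each), and Lamb2 to Ripor1, Brpf3 and Shank3 (0.97 each). Lama3 followed Isg20l2, Otud7b and Kctd20 (0.93 to 0.94), and Lamb3 followed Lgr6, Fam222a and Gm16316 (0.80 to 0.83).

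Lama4, Lamb1 and Lamc1 also moved together among mice with the same surgery, less so in Sham libraries after GC correction. The r of Lama4 with Lamc1 was 0.92 in the 8 Sham and 0.80 in the 9 TAC libraries, and that of Lamb1 with Lamc1 0.92 and 0.80. This was not particular to these chains. Lama2 with Lamc1 had r of 0.87 in Sham and 0.79 in TAC libraries, and 0.62 and 0.73 after GC correction. Lamb2 and Lama5 had r of 0.91 and 0.90 with Lamc1 in Sham, but 0.33 and 0.43 in TAC libraries. After GC correction Lama4 and Lamc1 were each other's nearest gene (r = 0.93 over 17 libraries, 0.66 in Sham and 0.83 in TAC), and Lamb1 held rank 3 for Lama4. The corrected r of Lamb1 with Lamc1 was 0.37 in Sham and 0.74 in TAC libraries, and that of Lamb1 with Lama4 0.56 and 0.86. Lama5 and Lamb2 had r = 0.995 in Sham and 0.72 in TAC libraries, and 0.97 and 0.40 after GC correction. Lamb3 had r from −0.39 to 0.08 with the other chains over 17 libraries, and −0.75 to 0.28 after GC correction.

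Summed markers of cell types that the tissue holds were compared between TAC and Sham. The 5 fibroblast markers summed to 614 to 1014 CPM in Sham Veh and 1198 to 1657 CPM in TAC Veh libraries, a log2 difference of 0.83 (exact permutation p = 0.0357). The 6 endothelial markers summed to 549 to 958 and 941 to 1235 CPM (0.51, exact permutation p = 0.0714), and the 6 mural cell markers to 869 to 1239 and 1162 to 1610 CPM (0.43, exact permutation p = 0.0714). With 29P the differences were 0.96, 0.76 and 0.35 (exact permutation p = 0.0238, 0.0476 and 0.0238). These sums are of CPM as deposited, and they were not tested with TMM factors. They stand beside all-gene medians of 0.35 in Veh mice and 0.37 with 29P. The mural difference with 29P thus lay under that general shift, and its p-value does not show a rise beyond it. The 4 macrophage markers summed to 210 to 243 CPM in Sham Veh, 313 to 484 in TAC Veh, 141 to 274 in Sham 29P and 306 to 401 in TAC 29P libraries. The 4 Schwann cell markers summed to 5.86 to 16.6 CPM, the 6 mesothelial markers to 3.91 to 13.9 CPM and the 3 adipocyte markers to 0.126 to 12.7 CPM over the 17 libraries. Of the 5 lung and skin epithelial markers 1 was in the file, at 0 to 0.149 CPM. The r of Lama2, Lama4, Lamb1 and Lamc1 with the summed mural markers was 0.42 to 0.79 in the 8 Sham and 0.52 to 0.73 in the 9 TAC libraries, and with the endothelial markers 0.48 to 0.88 and −0.13 to 0.41. With the fibroblast markers it was 0.02 to 0.19 and 0.05 to 0.40, with the macrophage markers 0.12 to 0.61 and 0.36 to 0.64, and with the cardiomyocyte markers 0.31 to 0.69 and −0.30 to 0.15. The part of these cells in the laminin changes was not tested.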

How the data were processed

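Left ventricular apex RNA of 17 mice, grouped by their labels, was analysed. Per the paper's methods, the authors mapped reads with STAR 2.3.7 (Partek Flow, mm10). They deposited CPM values with a constant of 0.0001 added. The counting tool and its strand setting are not given in the sources used here. In each library 85.3 to 87.6% of the values up to 20 steps were whole multiples (within 2%) of its smallest step, so reads were not recovered and no count model was used. Depth was estimated from that step. At 20 M reads, 0.5 CPM stands for 10 reads.

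Log2 CPM of 16218 genes was fitted with limma 3.58.1 in R 4.3.3 (a mean for each group, variance trend), with Benjamini-Hochberg adjustment over all genes and a threshold of 0.05. Single values were compared by exact two-sided permutation, doubling the smaller one-sided p, in Python 3.11.15 with scipy 1.17.1, numpy 2.4.6, pandas 2.3.3 and matplotlib 3.10.9. The GC correction took from log2(CPM + 0.1) the median deviation of genes in the same of 20 GC bins (15887 genes with a GC value in GENCODE vM21). TMM factors were computed on CPM. Similarity used log2 CPM. Nothing in the labels says that libraries of a group came from separate litters or days, and p-values measure the spread between these mice. The animal numbers in the column labels fell into runs of close numbers, here A to D, whose meaning is not given. All TAC 29P libraries but S18 were in run A, while Sham 29P S4, S14 and S15 were in A, B and C. Only run A thus held both groups. Run D was S18, S19 and S20, the libraries with atrial transcripts, so run and atrial content cannot be told apart there. The model was tested on simulated data.

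The laminin chains and the gene lists were chosen with earlier results of these data known. All 8 chains, Lamc3, the receptors and the integrin chains bound by 29 are named, with up to 4 genes of each other list by the smallest limma p in TAC Veh against Sham Veh and the 3 genes most similar to each chain. Dmd was added after its values were seen. Results for 2 of the listed genes, and the shares that need them, are not reported here. Alternatives were TMM and median-of-ratios factors, totals without mitochondrial genes, constants of 0.1 and 1, other filters, fits of only the pair compared, a covariate for the run of animal numbers, each library left out and, chosen after seeing the data, the GC correction and leaving out S6, S14 and S19 or S18, S19 and S20. Libraries that the study removed, among them a TAC Veh library for its clustering with Sham mice, were not analysed here.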

Additional observations from a re-analysis of the deposited data

How the results depend on the processing

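The TAC calls of Lamc1 held under every alternative, and those of Lama2, Lama4 and Lamb1 were lost in the settings named beside them above. The causes were not tested. No paired analysis was possible because no 2 groups share a library number. Depth limits Lama3, the lowest of the chains, and 3 libraries in TAC Veh and Sham 29P limit every comparison.

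In TAC Veh against Sham Veh, the laminin chains called higher numbered 2 without S6, S14 and S19 with TMM factors and 2 with GC correction, and 3 to 6 with 1 library left out, the fewest without TAC Veh S2. Lamb3 was the 1 chain called lower with TMM or median-of-ratios factors, with GC correction, and without S6, S14 and S19 under any scaling, and 0 to 1 chains were lower with 1 library left out (Lamb3 without S6). In TAC 29P against Sham 29P, 1 chain (Lamc1) was higher without S6, S14 and S19 with TMM factors or GC correction, and 1 (Lama5) lower with GC correction alone.

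All genes called in TAC Veh against Sham Veh numbered 1547 with TMM and 1540 with median-of-ratios factors, 2092 with totals without mitochondrial genes, 2144 with GC correction, 2609 with only the groups compared, 2323 without S18, S19 and S20, 2349 without S6, S14 and S19, then 1127 with TMM factors and 1389 with GC correction, 6630 unadjusted and 468 to 4584 with 1 library left out (fewest without TAC Veh S2, and also under the main count by over 1.5 times without S6, S16 or S19), against 3958. In TAC 29P against Sham 29P they numbered 1757, 1736, 2388 and 1797 in the first 4 of these settings, 706 with the run as a covariate, 2162 without S6, S14 and S19, then 446 and 485, and 1076 to 6683 with 1 library left out (fewest without Sham 29P S14, and also by over 1.5 times without S15 or S3), against 5278. For 29P within TAC they numbered 1 in all fits without S6, S14 and S19, 321 unadjusted and 0 to 2 with 1 library left out (most without TAC Veh S12). Within Sham they numbered 0 with constants of 0.1 and 1, GC correction and only the groups compared, 4 without a filter, 1215 unadjusted and 1 to 13 with 1 library left out (most without Sham 29P S4, and 2 without S15).

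Lama5 and Lamb2 changed direction in some settings. Lama5 in TAC Veh was −0.014 with GC correction, −0.13 without S6, S14 and S19 with TMM factors and −0.16 with GC correction, and Lamb2 was −0.0065 in the last. In TAC 29P, Lama5 was −0.10 with TMM and −0.098 with median-of-ratios factors, −0.39 with GC correction, −0.088 without S6, S14 and S19, then −0.37 and −0.45, and −0.088 to 0.47 with 1 library left out. Lamb2 was −0.18, −0.14 and −0.21 with GC correction and in the last pair of settings.

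The other reversals were in comparisons in which no chain had passed. For 29P within TAC, Lama3 was 0.052 with the run as a covariate and −0.21 to 0.074 with 1 library left out. Within Sham, the run gave −0.062 for Lama3, −0.059 for Lama5 and −0.0052 for Lamb2, and leaving out S18, S19 and S20 gave −0.038, −0.0025 and −0.0076. Without S6, S14 and S19, Lama2 was −0.053 and Lama3 −0.045, and GC correction gave 0.026 for Lamc1. With 1 library left out, the Sham differences were −0.059 to 0.11 for Lama2, −0.12 to 0.33 for Lama3, −0.12 to 0.44 for Lama5, −0.096 to 0.37 for Lamb2, −0.29 to 0.28 for Lamb3 and −0.23 to 0.047 for Lamc1.

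The interaction of Lama3 was 0.11 with the run and 0.0073 without S6, S14 and S19. That of Lama4 was −0.012, −0.014, −0.00093 and −0.026 with TMM factors, median-of-ratios factors, totals without mitochondrial genes and GC correction. That of Lamb3 was −0.18 with the run and −0.19 without S18, S19 and S20. With 1 library left out, interactions were −0.37 to 0.080 for Lama3, −0.098 to 0.14 for Lama4, −0.056 to 0.28 for Lamb1, −0.43 to 0.038 for Lamb2 and −0.27 to 0.012 for Lamc1.

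The log2 ratio of Lama5 to Lama2 for 29P was 0.079 within TAC and −0.12 within Sham with the run, and 0.042 and −0.049 without S18, S19 and S20. With 1 library left out it was −0.079 to 0.059 within TAC and −0.12 to 0.33 within Sham, that of Lama4 to Lama2 −0.058 to 0.11 within TAC and −0.15 to 0.025 for TAC Veh against Sham Veh, and that of Lamb1 to Lamb2 −0.13 to 0.073 within TAC.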
